A study of Rattus norvegicus with 8 samples.

Results

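The immediate early genes described here are Jun, Junb, Jund, Fos, Fosb, Fosl1, Atf3, Egr1, Ier2 and Dusp1 in the rat oesophagus. They were taken by gene symbol from the platform annotation and make up 10 of the 22093 genes measured, each with 1 probe set. The 8 arrays came from 4 rats, 2 on a riboflavin-normal diet (RcN+ in the labels) and 2 on a riboflavin-deficient diet (R0N+), and each rat gave epithelial neoplasia and adjacent normal tissue. Every rat, in all 4 groups, had been injected subcutaneously with N-nitrosomethylbenzylamine (NMBA), an oesophageal carcinogen of the rat, 3 times a week for 5 weeks at a dose of 0.35 mg/kg, and was killed at week 25. Adjacent normal tissue is therefore carcinogen-treated tissue, and no array of an untreated rat was analysed here. RNA came from paraformaldehyde-fixed, paraffin-embedded tissue and was amplified with a kit made for such material. The question set by the design is whether the genes differ between neoplasia and adjacent tissue of the same animal, and whether diet changes that difference. Diet differs only between animals, so each diet rests on 2 rats.

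Immediate early genes are transcribed within minutes of a growth factor, stress or injury signal, without new protein synthesis, because their promoters are bound in advance by serum response factor with its ternary complex partners and by CREB family proteins that MAP kinases and related kinases activate. JUN proteins pair with each other or with FOS proteins to form AP-1, which binds a short palindromic element in genes of proliferation, matrix breakdown and keratinocyte differentiation. ATF3 is a stress-induced partner of JUN proteins, EGR1 is a zinc finger factor induced by the same signals, IER2 is a short-lived nuclear protein, and DUSP1 is a phosphatase that switches MAP kinases off again.

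Promoter sequences near the start of some of the genes were searched for such input elements and for AP-1 and EGR elements. Only exact matches to a fixed pattern were counted, so near matches are not marked. RefSeq windows on build GRCr8, from 250 bases before to 50 bases after the annotated start, were matched by symbol for 7 of the 10 genes. The Fosb window lies inside the annotated gene, 322 bases past its start, and was left out, so 6 genes were searched. Windows of Jun, Fos and Atf3 were not used here. The stretches that hold a match are printed 5′ to 3′ on the gene's strand, with the matches in capitals. For Egr1 the 32 bases that span its matches are given, and for the others the 250 bases before the start.
Egr1 promoter stretch, chr18:26736973-26737004, plus strand: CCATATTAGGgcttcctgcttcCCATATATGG
Jund promoter, chr16:18769772-18770021, minus strand: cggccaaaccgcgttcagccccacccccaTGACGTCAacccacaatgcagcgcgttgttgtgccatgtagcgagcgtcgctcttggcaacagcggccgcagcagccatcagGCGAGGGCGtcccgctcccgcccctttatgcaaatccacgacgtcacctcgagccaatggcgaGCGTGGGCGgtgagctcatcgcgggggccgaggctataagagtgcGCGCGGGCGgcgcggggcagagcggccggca
Ier2 promoter, chr19:40399123-40399372, plus strand: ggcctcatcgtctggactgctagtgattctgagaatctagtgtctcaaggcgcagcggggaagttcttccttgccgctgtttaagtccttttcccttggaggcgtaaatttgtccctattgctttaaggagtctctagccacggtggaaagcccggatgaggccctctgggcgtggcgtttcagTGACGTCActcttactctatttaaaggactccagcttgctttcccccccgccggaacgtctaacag
Dusp1 promoter, chr10:17184603-17184852, plus strand: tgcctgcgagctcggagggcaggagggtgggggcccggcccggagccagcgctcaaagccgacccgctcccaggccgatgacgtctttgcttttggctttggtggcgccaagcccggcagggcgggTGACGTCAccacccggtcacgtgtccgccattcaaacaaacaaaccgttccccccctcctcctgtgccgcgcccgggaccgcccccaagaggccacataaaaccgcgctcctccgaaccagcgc

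Capitals in Egr1 mark a pair of serum response CArG boxes, at -105 to -96 and -83 to -74 from the start. The CArG box was searched by name on both strands and was present in 1.64% of the 33469 windows of all genes, and in 1 of the 6 here. Capitals in Ier2 and Dusp1 mark the cyclic AMP element TGACGTCA, at -66 to -59 and -124 to -117. Jund holds the same element at -221 to -214, and 1.83% of all windows hold it. The capitals nearer to the Jund start mark 3 matches to the EGR element GCGNGGGCG, which 4.98% of all windows contained and which was found in no other of the 6. The AP-1 element TGANTCA was present in 7.33% of all windows and in 0 of these 6. No matches overlapped each other. A match is a description of letters in this window and shows neither binding nor use.

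**Figure D1:**
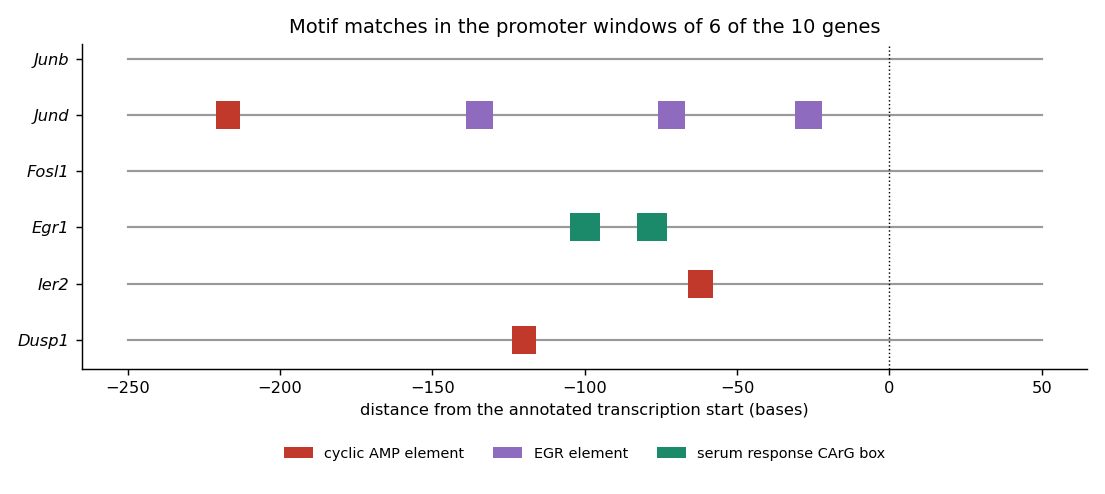
Position of motif matches (coloured boxes) along the promoter windows (grey lines) of 6 genes, with distance in bases from the annotated start (dotted line). Egr1 carries 2 CArG boxes, Jund 1 cyclic AMP element and 3 EGR elements, and Ier2 and Dusp1 1 cyclic AMP element each, while the windows of Junb and Fosl1 show no match.

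Values are log2 signals after robust multi-array averaging (RMA) by the authors, so a difference of 1 is a 2-fold change. Background was read from 23 control probe sets with no target, whose median lay at 3.29 to 3.53 and whose highest value lay at 4.34 to 6.37 on the 8 arrays. All 10 genes exceeded the median control on 8 of 8 arrays. Jund, Egr1, Ier2 and Dusp1 also exceeded the highest control on all 8, Jun on 7, and Fos, Fosb and Atf3 on 6. Junb and Fosl1 exceeded it on 1 array each, so both were measured close to background. A single control probe set is the highest on several arrays, and without it Junb exceeded the rest on 4 arrays, Fosl1 on 2 and the other 8 genes on all 8. Arrays correlated at 0.916 to 0.974, and riboflavin-normal adjacent normal replicate 2 stood apart with 472 probe sets at the upper limit of the scale against 1479 to 1749 on the others, none of them one of the 10 genes. Squamous differentiation markers were present on every array (median log2 signal 9.64 to 13.59), and so were skeletal muscle markers (9.95 to 13.46). The muscle coat of the rat oesophagus is striated, and the arrays hold signal of muscle as well as of epithelium. In such bulk tissue, fewer cells of a type and less RNA per cell cannot be told apart.

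None of the 22093 genes passed a limma adjusted p of 0.05 in any of the 7 comparisons made, which is 0% called in each. Before adjustment, p was under 0.05 for 485 genes in neoplasia over both diets, 806 and 425 within the riboflavin-normal and riboflavin-deficient diets, 760 for the difference between diets, 1122 and 524 for diet within neoplasia and adjacent normal tissue, and 840 for diet over animal means. The values of the 10 genes below are therefore measurements that did not pass the test, given with their standard errors.

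**Figure D2:**
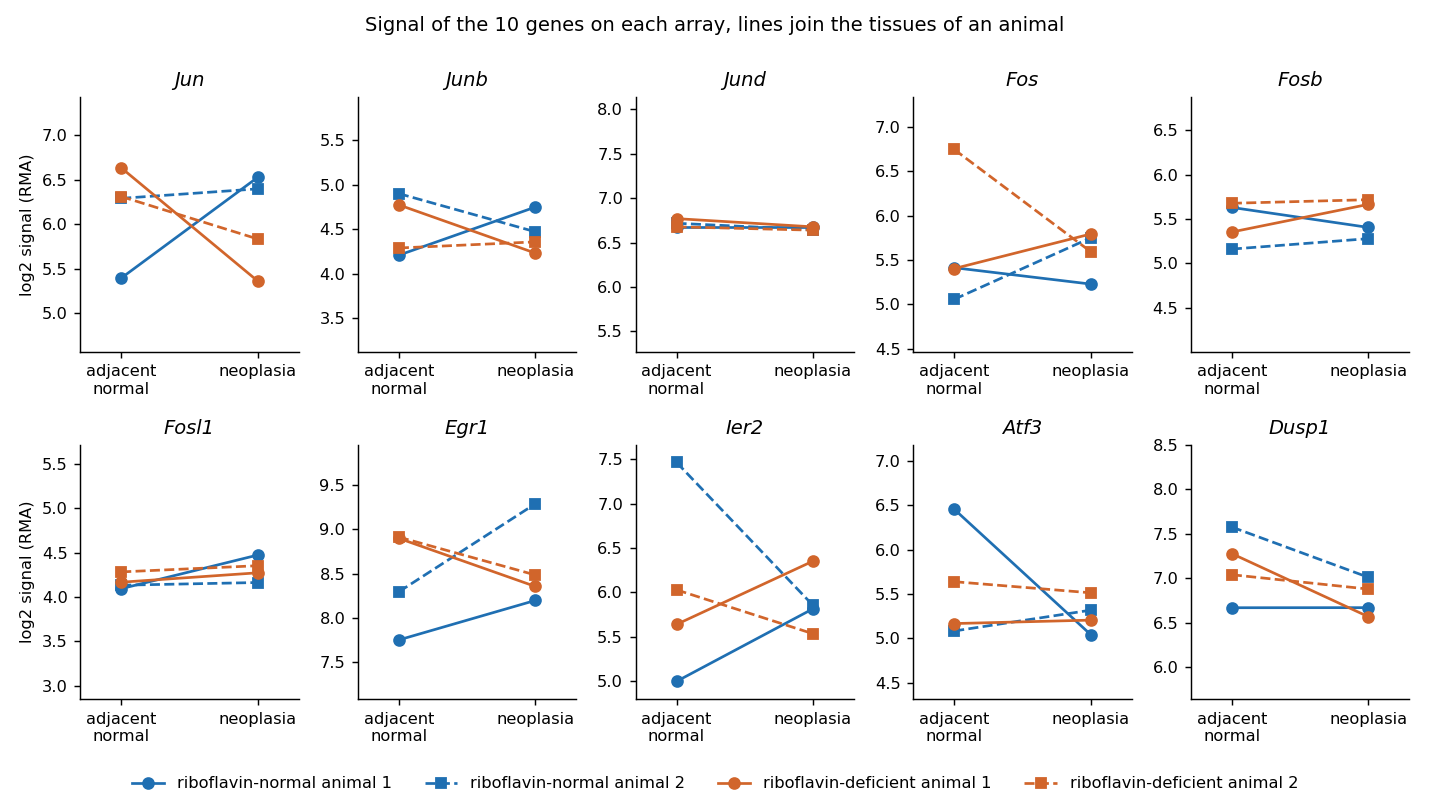
Log2 signal of each gene on each array, in panels of equal height in log2 units, with adjacent normal tissue on the left and neoplasia on the right of each panel. Lines join the tissues of an animal, blue for the riboflavin-normal and orange for the riboflavin-deficient diet. Lines of Jun and Egr1 run up in blue and down in orange, while those of Ier2 run in opposite directions within each diet.

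Jun, the founding subunit of AP-1, was higher in neoplasia than in adjacent tissue in both riboflavin-normal rats and lower in both riboflavin-deficient rats. In the riboflavin-normal rats its log2 signal went from 5.39 to 6.53 and from 6.29 to 6.40. In the riboflavin-deficient rats it went from 6.64 to 5.36 and from 6.31 to 5.83. The first riboflavin-normal rat had a low adjacent normal value, and in the second the tissues were only 0.11 apart. The mean difference was 0.62 (SE 0.34, n = 2 pairs, 1.54-fold higher) on the normal diet and -0.88 (SE 0.34, n = 2 pairs, 1.84-fold lower) on the deficient diet. Both SEs come from a spread estimate shared by the diets, not from the pairs of a diet alone. The difference between the mean effects of the diets was -1.50 (SE 0.47, limma unadjusted p = 0.0275, adjusted p = 1). Without the first riboflavin-normal rat it was -0.98, with 1 pair left for that diet. The mean over both diets was -0.13 (SE 0.24).

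Junb, a JUN protein that is often a weaker activator than JUN and restrains proliferation in several tissues, showed no shared direction. Its log2 signal was 4.21 and 4.90 in riboflavin-normal adjacent tissue and 4.75 and 4.47 in the matching neoplasia. On the deficient diet it was 4.77 and 4.29 in adjacent tissue and 4.23 and 4.36 in neoplasia. The tissue groups overlapped within each diet, at a signal close to background. Jund, the JUN protein that most cells keep at a steady level, ranged over 0.13 log2 units on the 8 arrays, from 6.64 to 6.77. On 4 arrays its value was identical to 5 decimals, which 0.638% of all genes showed on 4 or more arrays. The cause of the tie is not known, and its part in the small spread was not tested. After quantile normalisation of the deposited values its pair differences ran from -0.34 to 0.14, where the deposited values gave -0.09 to 0.

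Fos, which cannot pair with itself and binds DNA with a JUN protein, stood out on a single array. Its log2 signal was 5.41 and 5.06 in riboflavin-normal adjacent tissue and 5.23 and 5.75 in the matching neoplasia. On the deficient diet it was 5.40 and 6.745 in adjacent tissue and 5.79 and 5.59 in neoplasia. The highest value was that of adjacent normal tissue of the second riboflavin-deficient rat, with every other array at or below 5.79. Pair differences had both signs within each diet, from -1.15 to 0.69, and the mean over diets was -0.06 (SE 0.31, limma adjusted p = 1).

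Fosb, a FOS relative with a stable splice form known from chronic stimulation in brain, varied from 5.16 to 5.72 over the 8 arrays. Its mean neoplasia difference was 0.06 (SE 0.13), with 3 of 4 pairs higher. Fosl1, the FRA1 subunit that is common in invasive squamous carcinoma cells, was the only one of the 10 genes higher in neoplasia in all 4 pairs, which held for 4.1% of all genes. None of the 10 was lower in all 4, against 3.79% of all genes. Its log2 signal was 4.09 and 4.13 in riboflavin-normal adjacent tissue and 4.47 and 4.16 in neoplasia, and 4.17 and 4.28 against 4.27 and 4.35 on the deficient diet. The mean difference was 0.15 (SE 0.12, limma adjusted p = 1). These values lie near background, and the second riboflavin-normal pair turned to -0.13 after quantile normalisation and -0.10 after cyclic loess.

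Atf3 showed the same dependence on an array as Fos, in another animal. Its log2 signal was 6.46 in adjacent normal tissue of the first riboflavin-normal rat and 5.04 to 5.64 on the 7 others. That pair differed by -1.41, and the other pairs by 0.23, 0.04 and -0.13. The mean over diets was -0.32 (SE 0.29) and became 0.10 without that animal.

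Egr1 had the same split by diet as Jun in the deposited values. Its log2 signal went from 7.75 to 8.20 and from 8.30 to 9.29 in the riboflavin-normal rats, and from 8.90 to 8.36 and from 8.91 to 8.48 in the riboflavin-deficient rats. The 2 riboflavin-deficient adjacent normal arrays lay within 0.02 of each other and above both riboflavin-normal ones. The mean difference was 0.72 (SE 0.20, n = 2 pairs, 1.64-fold higher) on the normal diet. Of the 10 genes, Egr1 alone had an unadjusted p under 0.05 within that diet (limma unadjusted p = 0.0168, adjusted p = 1). That SE and p use a spread estimate shared by both diets. On the deficient diet the mean difference was -0.48 (SE 0.20, n = 2 pairs, 1.40-fold lower). The difference between the effects was -1.20 (SE 0.28, limma unadjusted p = 0.00889, adjusted p = 1). This split depended on the normalisation. After quantile normalisation the pairs were -0.15 and 1.14 on the normal diet and -0.02 and -0.43 on the deficient diet, and after cyclic loess -0.25, 1.23, -0.11 and -0.39. The riboflavin-normal pairs then disagreed in sign, and the difference between the effects was -0.72 (SE 0.48) and -0.74 (SE 0.53). For Jun the pair signs were the same under both, with differences of -1.52 and -1.40.

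Ier2 had the widest range of the 10 genes, from 5.00 to 7.46, and both extremes were riboflavin-normal adjacent normal tissue. Its pairs differed by 0.82 and -1.61 on the normal diet and by 0.71 and -0.49 on the deficient diet. The other arrays lay between 5.53 and 6.35, so the groups overlapped. Dusp1, the feedback phosphatase, was lower in neoplasia in 3 pairs, with differences of -0.57, -0.71 and -0.16, and differed by 0.00 in the first riboflavin-normal pair. Its mean difference of -0.36 (SE 0.17) was 1.28-fold lower on the linear scale. It had the lowest unadjusted p of the 10 genes in that comparison (limma unadjusted p = 0.0875, adjusted p = 1). After quantile normalisation the first pair was -0.34 and all 4 pairs were lower.

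Over both diets, 3 of the 10 genes were higher and 7 lower in neoplasia, with a median of -0.08, where 50.5% of all genes were higher. Jun, Fosl1 and Egr1 were higher in both riboflavin-normal pairs, as were 21% of all genes, and none of the 10 was lower in both (17.5% of all genes). On the deficient diet Jun, Jund, Egr1 and Dusp1 were lower in both pairs (24.6% of all genes), and Fosb and Fosl1 were higher in both (24.2%). Jun and Egr1 were the 2 genes higher in both riboflavin-normal and lower in both riboflavin-deficient pairs, a pattern of 6.33% of all genes. None showed the opposite pattern, against 4.6% of all genes.

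**Figure D3:**
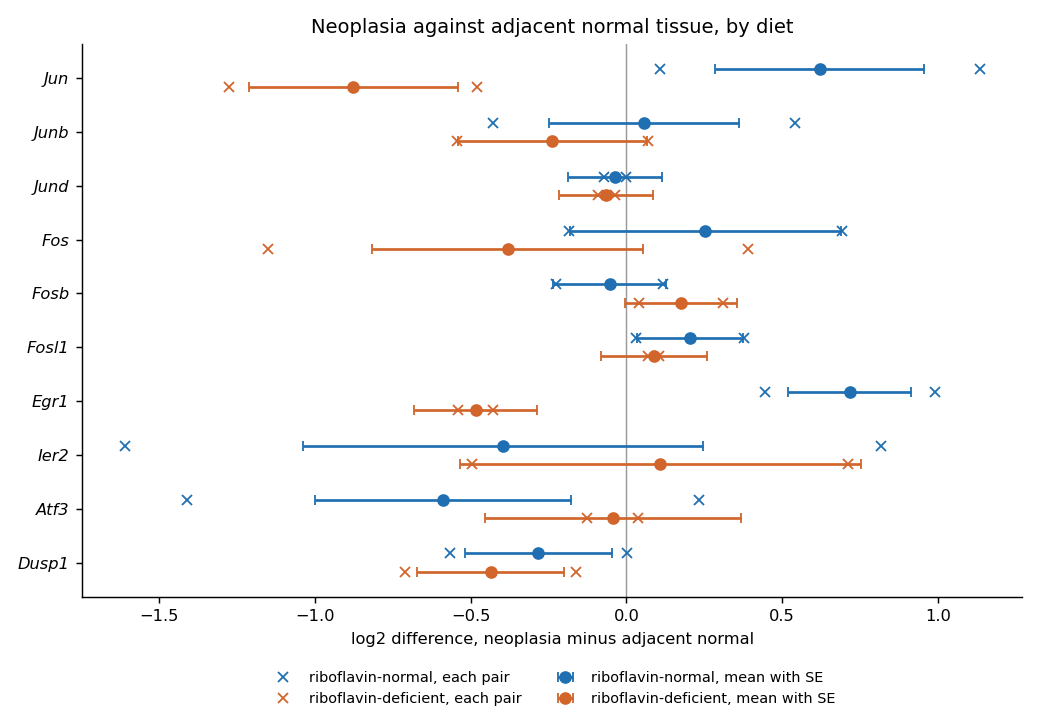
Log2 difference of neoplasia minus adjacent normal tissue for each gene, with crosses for single animals and dots with bars for the mean and its SE in the limma fit (2 pairs per diet, blue normal and orange deficient). The SE of a gene rests on a spread shared by both diets. The bars of Jun and Egr1 lie on opposite sides of 0, at 0.62 and -0.88 and at 0.72 and -0.48, and those of the 8 other genes overlap between the diets.

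Medians of other gene lists also differed within these pairs, and each had the signs of Jun and Egr1 in only some of them. The median log2 signal of 38 cytosolic ribosomal protein genes was 8.38 and 10.01 in riboflavin-normal adjacent tissue, 9.90 and 9.90 in the matching neoplasia, 9.39 and 8.81 in riboflavin-deficient adjacent tissue, and 8.67 and 8.69 in the matching neoplasia. Within pairs, the list's median difference was 1.10 and -0.37 on the normal diet and -0.52 and -0.01 on the deficient diet and thus had the sign of Jun in 3 of 4 pairs. Squamous differentiation markers, 19 of 20 measured, differed by a median of 3.10 and 0.02 and by -1.60 and 0.14. For heat shock genes, 9 of 11 measured, the medians were 0.78, -0.24, -1.10 and -0.13. Skeletal muscle markers differed by -0.03, -1.97, -1.95 and 0.62, and the median of 12 leukocyte markers by -0.09, 0.00, 0.06 and 0.09. Single leukocyte markers moved more. S100a8, which stressed squamous epithelium also makes, differed by 2.14, 2.06, 1.02 and 3.17, and Cd68, a macrophage marker, by -0.25, -0.90, 0.32 and 0.44. Over the 8 arrays, which share animals, Pearson r with the ribosomal median was 0.78 for Jun, 0.85 for Junb, -0.92 for Fosb, -0.71 for Atf3, 0.54 for Dusp1 and 0.35 for Egr1. With the SD over genes of each array, r was 0.67 for Jun, 0.88 for Junb, -0.97 for Fosb, -0.68 for Atf3, 0.68 for Dusp1 and 0.26 for Egr1. With the skeletal muscle median, r was 0.45 for Jun, 0.85 for Junb, -0.87 for Fosb, -0.36 for Atf3, 0.79 for Dusp1 and -0.05 for Egr1. The ribosomal median was also used as a covariate on the deposited values, in a fit added after the data were seen. The difference between the neoplasia effects was then -0.69 (SE 0.31) for Jun and -1.51 (SE 0.29) for Egr1. This fit has fewer residual degrees of freedom than the 2 of the fit without the covariate, so its SEs are poorly determined. The part of tissue content and array quality in the Jun and Egr1 values was otherwise not tested.

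**Figure D4:**
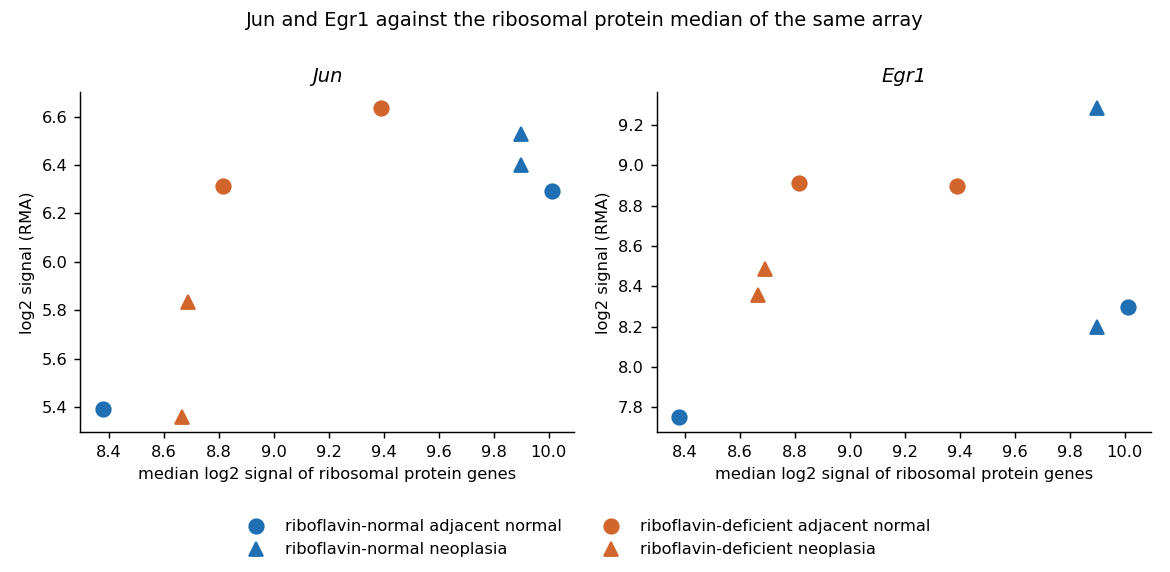
Log2 signal of Jun (left) and Egr1 (right) against the median log2 signal of ribosomal protein genes on the same array, 8 arrays in 4 groups of 2. The 3 arrays with the lowest Jun signal lie at ribosomal medians of 8.38 to 8.69, and Egr1 spreads from 8.20 to 9.29 at a ribosomal median of 9.90.

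Between the diets, Jun in neoplasia was lower on the deficient diet, at 5.36 and 5.83 against 6.53 and 6.40. The groups did not overlap, and the difference was -0.87 (SE 0.32, limma unadjusted p = 0.0359, adjusted p = 0.851). Junb, measured close to background, was also lower without overlap, with a difference of -0.32 (SE 0.28). Of all genes, 23.2% lay lower in this way. Fosb was the only one of the 10 higher without overlap (0.35, SE 0.20), against 26% of all genes. In the same comparison 0 of 38 ribosomal protein genes were higher, with a median of -0.89. Egr1 in neoplasia differed by -0.32 (SE 0.36) and turned to 0.40 after quantile normalisation, 0.31 after cyclic loess and 0.22 without the second riboflavin-normal rat.

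In adjacent normal tissue, Jun, Fosl1 and Egr1 were higher on the deficient diet without overlap, against 11.8% of all genes, and none of the 10 was lower in this way (8.78% of all genes). Egr1 differed most, by 0.88 (SE 0.36, limma unadjusted p = 0.0509, adjusted p = 1). Jun differed by 0.63 (SE 0.32), with a gap of only 0.02 between its closest values, 6.31 and 6.29. Without the first riboflavin-normal rat, Jun differed by 0.18. Fosl1, measured close to background, differed by 0.11 (SE 0.15). Fos differed by 0.84 (SE 0.44) with overlapping groups, and by 0.17 without the second riboflavin-deficient rat. Over animal means, Fos had the lowest unadjusted p of the 10 genes (0.52, SE 0.23, limma unadjusted p = 0.0802, adjusted p = 0.887). Without the second riboflavin-deficient rat this difference was 0.24.

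**Figure D5:**
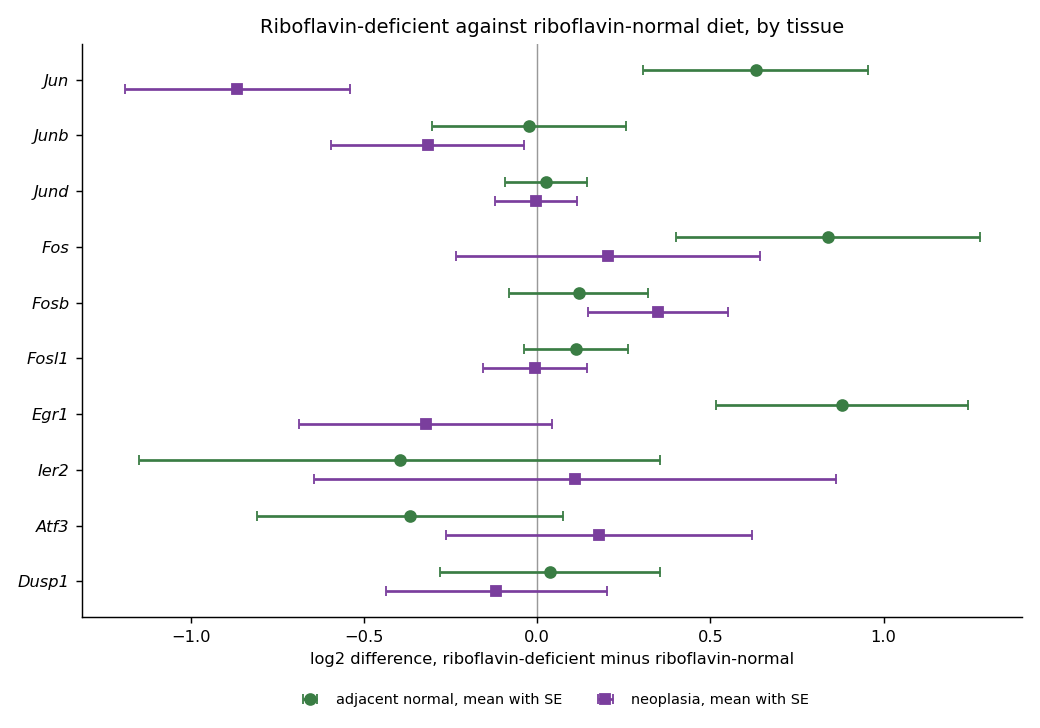
Log2 difference of the riboflavin-deficient minus the riboflavin-normal diet for each gene, with its SE in the limma fit, in adjacent normal tissue (green circles) and neoplasia (purple squares), 2 animals per diet. Jun and Egr1 lie above 0 in adjacent normal tissue, at 0.63 and 0.88, and below 0 in neoplasia, at -0.87 and -0.32.

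The 10 genes did not vary as a block across the arrays. Of the 45 pairs among them, 23 had a Pearson r above 0 over the 8 arrays, and the median r was 0.02. Jun and Junb was the only pair above 0.7 (r = 0.75), and Junb and Fosb had r = -0.85, with Junb near background. Jun and Egr1 had r = 0.59, and Fos and Egr1 r = 0.48. The 8 arrays come from 4 animals, so these values are descriptions. Among 11039 candidate genes, those most like Fos were Zfp207-ps1 (r = 0.97), LOC102555562 (0.95), Mir361 (0.95), Ccn1 (0.95) and Or2t6 (0.94). The single array on which Fos reached 6.745 weighs heavily on these r values. Ccn1 is itself an immediate early gene, encoding a matricellular protein, and its pair differences were -0.66, 0.81, 0.26 and -1.09. Genes most like Egr1 were Dmac1 (r = 0.95), Gimap7 (0.94), Rpl23al5 (0.94), Rhov (0.93) and Pigq (0.93), none of them on the gene lists used here.

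The wider pathway gave no gene that passed either. Of 37 measured other immediate early genes, 0 passed in either direction, with 26 higher in neoplasia on the normal diet (median 0.11) and 17 on the deficient diet (median -0.01). Over all genes 49.9% and 49.1% were higher in those comparisons. In this list 8 of 37 were higher in both riboflavin-normal and lower in both riboflavin-deficient pairs (6.33% of all genes), and 2 of 37 showed the opposite pattern (4.6% of all genes). Plk2, a polo-like kinase, had pair differences of 0.59 and 0.76 and of -0.60 and -0.17. Mcl1, an inhibitor of apoptosis, had 1.09 and 0.47 and then -1.25 and -0.30. Phlda1, a target of MAP kinase signalling, was higher in all 4 pairs (0.97, 0.66, 0.70 and 0.20), with a mean of 0.63 (SE 0.14, limma adjusted p = 1). Id2, an inhibitor of helix-loop-helix factors, differed on the normal diet by -1.24 (SE 0.26, limma adjusted p = 1).

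Of the 8 EGR and NR4A relatives, 0 passed and 6 were higher in neoplasia over both diets (median 0.03), where 50.5% of all genes were higher. Nab1, a corepressor that binds EGR proteins, differed by 1.09 and 0.70 on the normal diet and by -0.32 and 0.41 on the deficient diet. Of 12 other AP-1 partners measured, 0 passed and 8 were higher over both diets (median 0.11). Batf, a partner of JUN proteins best known in lymphocytes, was higher on the deficient diet within neoplasia by 0.52 (SE 0.17, limma adjusted p = 0.851), and Atf4, of the integrated stress response, differed by -0.59 (SE 0.24).

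Upstream, 19 of 24 genes for MAP kinases and the factors they activate were measured and 0 passed. In neoplasia 18 of the 19 were lower on the deficient diet (median -0.30), and over animal means 19 of 19 were (median -0.15), where 54.2% of all genes were higher. All 38 ribosomal protein genes were lower over animal means too (median -0.61). Elk3, a ternary complex factor, differed by 0.59 and 0.35 in the riboflavin-normal pairs and by -0.16 and -0.20 in the riboflavin-deficient pairs. It was 1 of 3 among the 19 with this arrangement of signs, against 6.33% of all genes. Of 14 MAP kinase phosphatases and feedback inhibitors, 0 passed. In neoplasia 9 were higher on the normal diet (median 0.05), 2 on the deficient diet (median -0.14) and 6 over both diets (median -0.02). On the deficient diet 4 of 38 ribosomal protein genes were higher, and 49.1% of all genes. Of all genes, 49.9% were higher on the normal diet and 50.5% over both diets. Dusp7, a phosphatase of ERK kinases, differed by 1.87 and 0.23 and by -1.08 and -0.05, and 3 of the 14 had these signs.

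Downstream, 19 of 20 genes known as AP-1 targets were measured and 0 passed. In neoplasia over both diets 14 were higher (median 0.07), where 50.5% of all genes were higher. Ivl, loricrin and Tgm1 of this list are also among the squamous differentiation markers, so the lists are not independent. Ccl2, a chemokine for monocytes, was higher in all 4 pairs (1.67, 0.75, 0.76 and 0.39), with a mean of 0.89 (SE 0.19, limma adjusted p = 1). Cd44, the hyaluronan receptor, was higher in the riboflavin-normal pairs by 2.64 and 2.02 and differed by -1.24 and 0.12 in the riboflavin-deficient pairs. The difference between its effects was -2.89 (SE 0.53, limma adjusted p = 1). Ccnd1, which encodes cyclin D1, had pair differences of 0.79 and 0.28 and of -0.16 and -0.15, the same signs as Jun. Of the 19 targets, 3 had these signs (6.33% of all genes) and 1 had the opposite ones (4.6% of all genes).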

How the data were processed

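Log2 signals of 70580 probe sets on 8 arrays were deposited by the authors, who used Affymetrix Expression Console and RMA per the submitters' processing notes; versions and genome build are not given in the sources used here. A single symbol was paired with 23446 probe sets, several with 505, and 46629 were unnamed here or controls. Symbols were updated by Entrez ID (22077 matched, 1 changed). For 1182 genes with several probe sets the highest mean was kept, leaving 22093 genes. RMA puts arrays on a common scale, so levels are relative. The deposited values still differed between arrays, with an SD over genes of 1.33 to 1.75 and a gene median of 4.99 to 5.17.

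Fits used limma 3.58.1 in R 4.3.3, with Benjamini-Hochberg adjustment over all genes and a threshold of 0.05. Only the estimate of neoplasia over both diets was tried on simulated data, with large planted differences and no animal effect. The other comparisons were not tried in this way. Tissue was compared in a model with animal terms and, for each diet, a neoplasia term (2 residual degrees of freedom), diets by group means (4) and by animal means (2). Each fit has a single spread estimate per gene, so its SEs are equal in both diets or in both tissues. Pairing comes from the animal codes in the sample descriptions; deviations of paired tissues correlated at 0.19 (normal diet) and 0.16 (deficient diet). Exact tests cannot go below 0.125 for 4 pairs or 0.333 for 2 against 2. The number of arrays limits the precision.

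The genes, lists and tests were chosen with earlier results of these data known. Lists covered other AP-1 partners, EGR and NR4A relatives, other immediate early genes, MAP kinase inputs, phosphatases, AP-1 targets, heat shock, ribosomal proteins and markers of squamous and basal epithelium, muscle, fibroblasts, endothelium and leukocytes. Named genes are all members, some of the up to 3 genes of lowest p per list and comparison, and the 5 genes most correlated with Fos and with Egr1. Promoter sequences are RefSeq's on GRCr8. Alternatives were other normalisations, all probe sets of a gene, a filter on low genes, a variance trend, leaving out animals, no animal term and a ribosomal covariate.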

Additional observations from a re-analysis of the deposited data

Results flagged for a closer look

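The neoplasia effect on Jun ran in opposite directions in the diets, upward in both riboflavin-normal pairs and downward in both riboflavin-deficient pairs. The riboflavin-deficient minus riboflavin-normal effect was -1.50 (SE 0.47, limma adjusted p = 1). Egr1 ran the same way, with a difference of -1.20 (SE 0.28, limma adjusted p = 1), in the deposited values but not after quantile normalisation or cyclic loess. For Jun, the second riboflavin-normal pair differed by only 0.11, and r with the ribosomal median of the arrays was 0.78. The Jun difference was smaller in size without the first riboflavin-normal rat and with the ribosomal covariate. Neither the Jun nor the Egr1 difference passed over all genes, and 6.33% of all genes had this arrangement of signs.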

How the results depend on the processing

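The count of genes called stayed at 0 in all 7 comparisons under every alternative run, and the lowest limma adjusted p of any of the 10 genes under any setting was 0.271. Counts at an unadjusted limma p under 0.05 were 225 to 1664 over the alternatives for neoplasia over both diets (485 as reported), 491 to 2343 and 174 to 888 within the normal and deficient diets (806 and 425), 315 to 2332 for the difference between diets (760), 551 to 2068 and 206 to 2982 for diet within neoplasia and adjacent tissue (1122 and 524), and 301 to 3055 over animal means (840). Of 416 values of the 10 genes under other settings, 25 moved by more than the spread between replicates and 28 changed sign. Many of the 416 could not move, so these counts understate the dependence on processing. Averaging probe sets, filtering low genes, a variance trend and removing animal terms leave the values unchanged. Each of the 10 genes had 1 probe set, and every animal gave both tissues. All 28 sign changes came from the other normalisations and the ribosomal covariate. Leaving out each animal in turn gave 280 values, of which 20 moved and 58 changed sign. For the difference between diets, leaving out an animal gave -2.01 to -0.98 for Jun and -1.47 to -0.93 for Egr1, where the diet left with 1 pair was assumed to vary like the other. Leaving out the replicate block cannot change the estimates of -1.50 for Jun and -1.20 for Egr1, since every animal gave both tissues. The SE went from 0.47 to 0.46 for Jun and widened from 0.28 to 0.52 for Egr1. The count of genes called was 0, as with the block. Diet comparisons have no paired form because each animal had a single diet. A variance trend widened the SE of Egr1 to 0.56. The ribosomal covariate by diet was added after the data were seen, and it turned the sign of the difference between diets for 6 of the 10 genes, Junb (-0.29 to 0.44), Atf3 (0.55 to -0.49), Dusp1 (-0.15 to 0.31), Fosb (0.23 to -0.04), Fosl1 (-0.12 to 0.09) and Jund (-0.03 to 0.03). The cause was not tested. With 2 rats per diet, and Junb and Fosl1 near background, small differences of these genes were not detectable.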

Other observations

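Markers of tissue type not described above were also unequal between the pairs. Smooth muscle markers, 10 of 10 measured, differed between neoplasia and adjacent tissue by a median of 0.25 and -1.65 on the normal diet and -0.32 and 0.05 on the deficient diet. Basal keratinocyte markers, 9 of 10 measured, differed by 1.98 and -0.06 and by -0.19 and -0.07. Fibroblast and matrix markers, 10 of 10 measured, differed by 0.25 and -1.72 and by 0.00 and -0.05, and endothelial markers, 9 of 10 measured, by 0.01 and -0.08 and by 0.19 and -0.12. Hsp90aa1, a heat shock chaperone, had the signs of Jun and Egr1, with pair differences of 0.44 and 0.34 and of -1.10 and -0.76. These signs were shown by 2 of the 9 heat shock genes measured and by 6.33% of all genes. The difference between the effects on Hsp90aa1 was -1.32 (SE 0.24, limma adjusted p = 1).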
